A study of Mus musculus with 6 samples.

Results

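The spliceosome and RNA-binding protein families described here are 57 genes named by family: Lsm followed by digits (11 genes), Snrp (10), Srsf (10), Hnrnp (17), and Sf3a with Sf3b (9). The rule picks them by gene symbol, though the families were proposed with earlier results of these data known. They come from the 19938 genes that the arrays represent with a probe set annotated to 1 gene. A gene with more than 1 probe set was represented by the one with the highest mean. The cells came from the livers of 3 weaned CyclinB1-GFP transgenic mice aged 3.5 weeks. A fluorescent reporter named after cyclin B1 served to sort them into GFP-positive cells, labelled replicating, and GFP-negative cells, labelled quiescent. Both groups carry the transgene and differ in the sort alone, and the promoter that drives the reporter is not given in the sources used here. There are 3 Affymetrix arrays of amplified total RNA in each group. The arrays had similar overall brightness, with median log2 intensities between 4.60 and 4.74, and their number limits the precision. The sort itself shows in all 12 genes of a mitosis check, which all rose, with 2 named here. Prc1, which bundles microtubules of the central spindle, had log2 intensities of 3.60, 3.54 and 3.92 in the GFP-negative and 8.25, 8.45 and 8.48 in the GFP-positive arrays. Ncapg, a condensin subunit gene, stood at 4.14, 3.66 and 4.17 against 8.33, 8.75 and 8.60. The liver origin shows in the 9 hepatocyte markers. The log2 of their summed linear intensities lay between 15.73 and 15.82 in GFP-negative and between 15.63 and 15.73 in GFP-positive arrays.

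Introns are removed from new transcripts by the spliceosome, which is built from small nuclear ribonucleoproteins (snRNPs) that each hold an RNA and a ring of Sm or Lsm proteins. Snrp genes encode Sm ring proteins and proteins particular to the U1 and U2 snRNPs, and Sf3a and Sf3b genes encode the U2 parts that grip the branch point of the intron. Lsm2 to Lsm8 form the ring on U6 RNA in the nucleus, while Lsm1 to Lsm7 form a cytoplasmic ring that promotes decapping and decay of messenger RNA. SR proteins, encoded by Srsf genes, mostly favour the use of an exon, and heterogeneous nuclear ribonucleoproteins (hnRNPs), encoded by Hnrnp genes, coat new transcripts and often oppose it. Several of these proteins also act in export, stability and translation of RNA.

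Most of the 57 genes had somewhat higher values in GFP-positive cells, and 3 genes, all of them Lsm genes, passed the test. Lsm2, Lsm3 and Lsm5 rose, each by about 1 log2 unit or more, and no member fell. A gene was taken as changed at an adjusted p below 0.05 in limma, with Benjamini-Hochberg adjustment over all 19938 genes. At that threshold 1.55% of all genes were higher in GFP-positive cells and 0.115% were lower. At an unadjusted p below 0.05 there were 15 members above and none below, against 5.01% and 3.79% of all genes. The log2 difference, GFP-positive minus GFP-negative, was above 0 in 45 of the 57 members and in 44.3% of all genes. It was above 0 in 41.9% of the 13292 genes left when those with the lowest means were set aside. With quantile normalization it was above 0 in 42 members and 34.6% of all genes. With arrays centred on their medians it was above 0 in 43 members and 38.1% of all genes. In 21 members the 3 GFP-positive arrays all lay above the 3 GFP-negative arrays, and in none did they all lie below. Among all genes 6.82% were separated upward and 6.98% downward, and among those 13292 genes the shares were 8.07% and 8.26%. The members' median difference was 0.24, with quartiles at 0.04 and 0.37, beside a median of -0.03 for all genes. When arrays were matched by replicate number, the members' median difference was 0.26, 0.14 and 0.31 for numbers 1, 2 and 3, and that of all genes was -0.01, 0.02 and -0.06. In a bulk sample a smaller share of cells with a transcript and less of it per cell cannot be told apart.

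**Figure D1:**
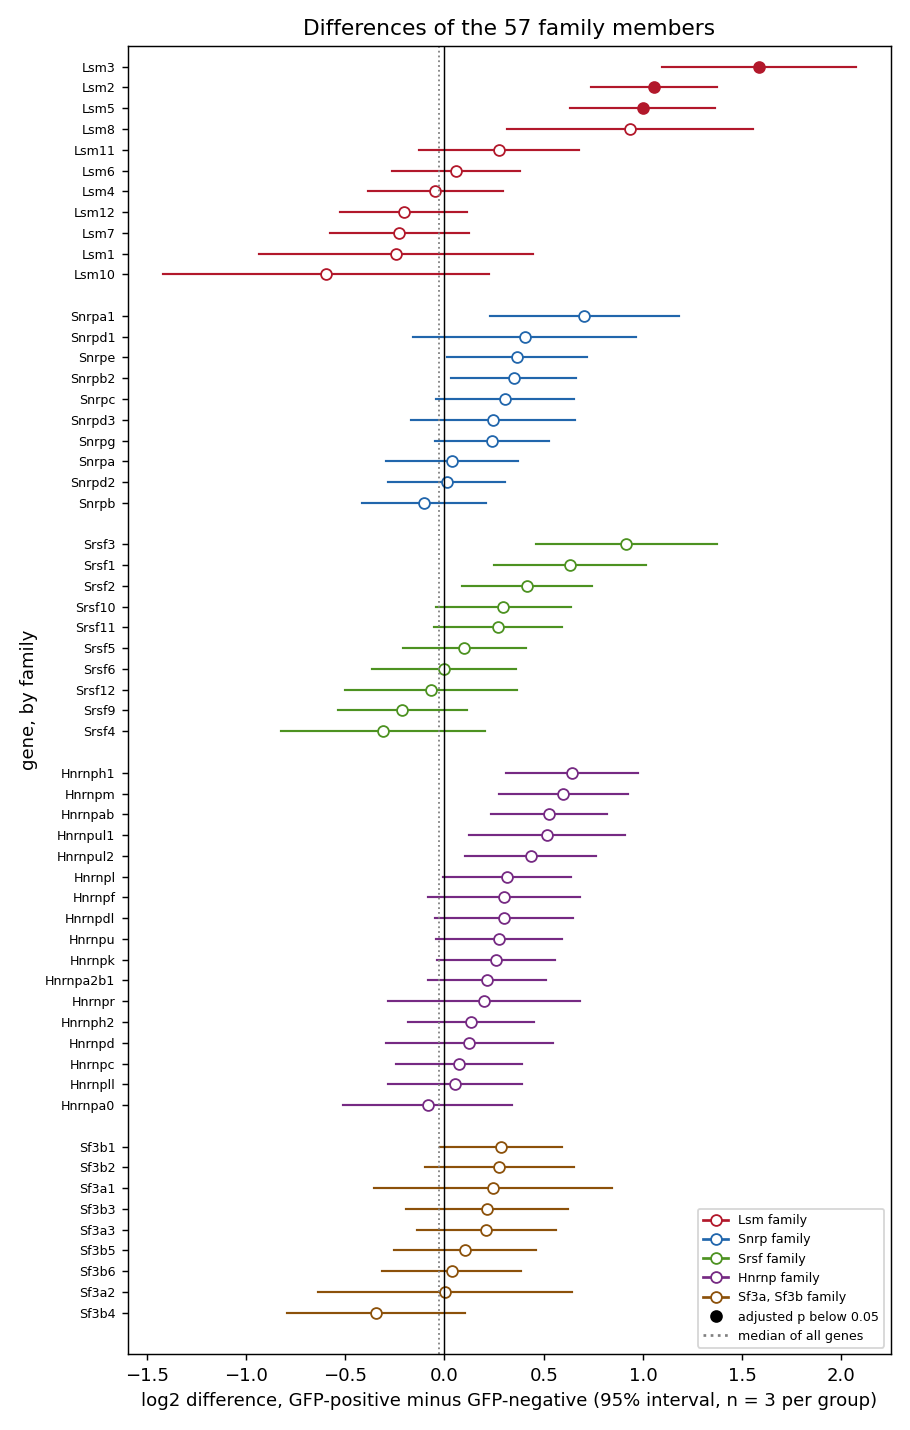
Log2 differences of the 57 members, GFP-positive minus GFP-negative, with 95% intervals from limma (n = 3 arrays per group), ordered within each family; the vertical axis lists genes, filled points passed at an adjusted p below 0.05 and the dotted line is the median of all genes. Lsm3, Lsm2 and Lsm5 are the filled points, at 1.58, 1.05 and 1.0, and 45 of 57 points lie above 0.

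Of the 5 families, Lsm had the widest spread and the lowest median. The median difference was 0.28 for Snrp, 0.27 for Hnrnp, 0.21 for Sf3a and Sf3b, 0.18 for Srsf and 0.06 for Lsm genes. The Lsm genes ran from -0.60 to 1.58, with an SD across genes of 0.70. The Hnrnp genes kept within -0.08 and 0.64 (SD 0.20), and the Sf3a and Sf3b genes within -0.35 and 0.28 (SD 0.20). The SD was 0.38 for Srsf and 0.23 for Snrp genes. These are descriptions of the families side by side, and the differences between families were not tested.

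**Figure D2:**
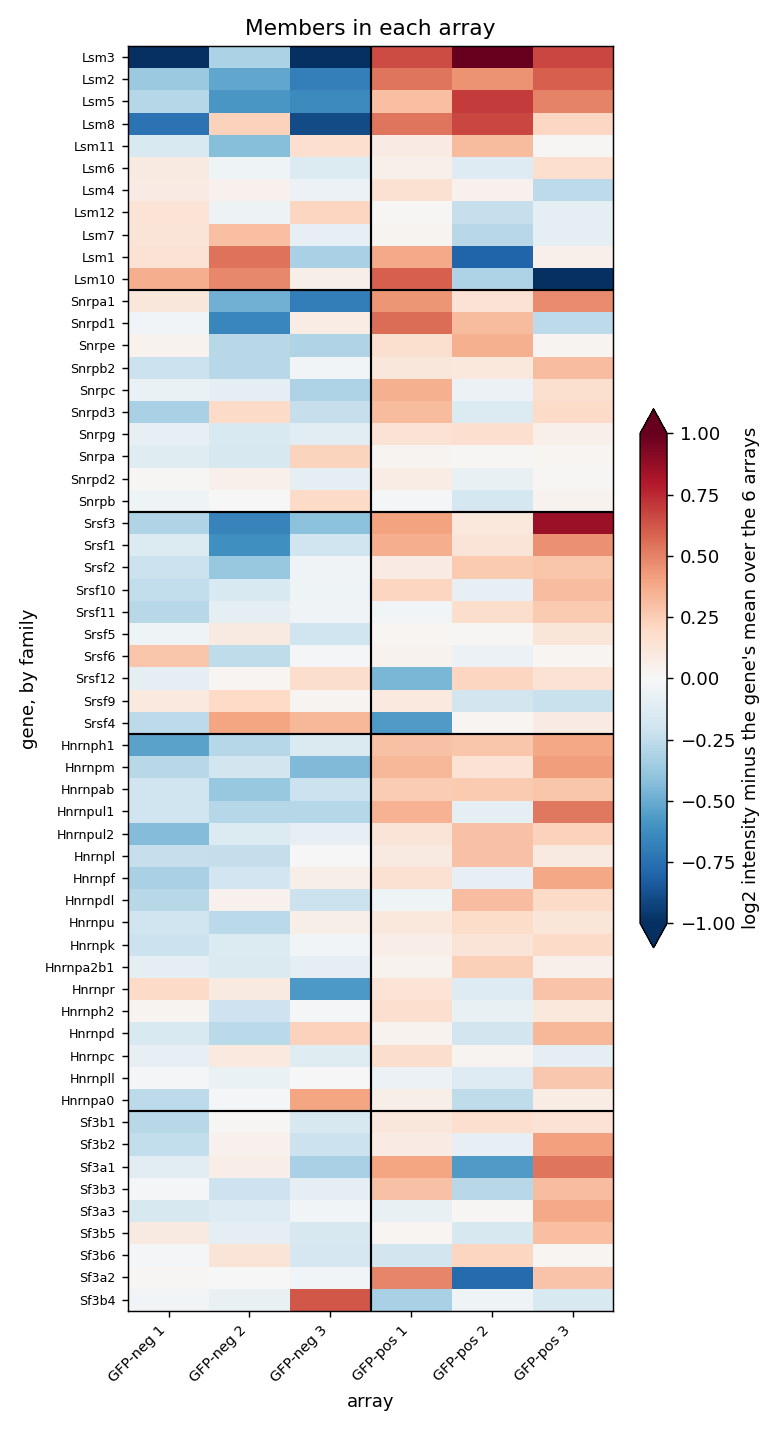
Log2 intensity of each member in each array minus that gene's mean over the 6 arrays, with genes as rows grouped by family (from the top Lsm, Snrp, Srsf, Hnrnp, Sf3a and Sf3b) and arrays as columns; colours are capped at 1 in either direction. The Hnrnp block changes from blue to red between the groups in most rows, while the Lsm block holds rows of both kinds.

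Lsm3 had the largest difference of all members. It encodes a subunit shared by the nuclear and the cytoplasmic ring. Its probe set (10540118) gave log2 intensities of 7.78, 8.50 and 7.78 in the GFP-negative arrays and 9.46, 9.87 and 9.48 in the GFP-positive arrays. The groups did not overlap, and the array of number 2 was the highest in each group. The log2 difference was 1.58 ± 0.22 (SE, n = 3 per group, adjusted p = 0.0038 in limma), or 3.0-fold, and it was 1.68, 1.37 and 1.70 for numbers 1, 2 and 3.

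Lsm2, which sits next to Lsm3 in both rings, had narrow groups. Its probe set (10444595) gave 6.39, 6.24 and 6.07 in GFP-negative and 7.30, 7.21 and 7.36 in GFP-positive arrays. The lowest GFP-positive array thus lay well above the highest GFP-negative one. The difference was 1.05 ± 0.14 (SE, adjusted p = 0.0033 in limma), or 2.08-fold. Lsm2 and Lsm3 passed in all 14 alternative analyses, with adjusted p from 0.0016 to 0.027 and from 0.00063 to 0.03.

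Lsm5, a further subunit of both rings, was measured by 3 probe sets. The one used (10445008) gave 9.17, 8.87 and 8.82 in GFP-negative and 9.76, 10.15 and 9.95 in GFP-positive arrays. The groups were separate, and the difference was 1.0 ± 0.16 (SE, adjusted p = 0.011 in limma), or 2.0-fold. The second probe set (10544971) gave 0.97, with 7.54, 7.17 and 7.22 against 8.09, 8.51 and 8.24, and passed when every probe set was tested on its own. The third (10353674) gave 0.80 with overlapping groups and did not pass. The Lsm5 call was lost without GFP-negative 3 (adjusted p = 0.057), without GFP-positive 3 (0.053), without both arrays of number 2 (0.10) and with the mean of the 3 probe sets (0.066).

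**Figure D3:**
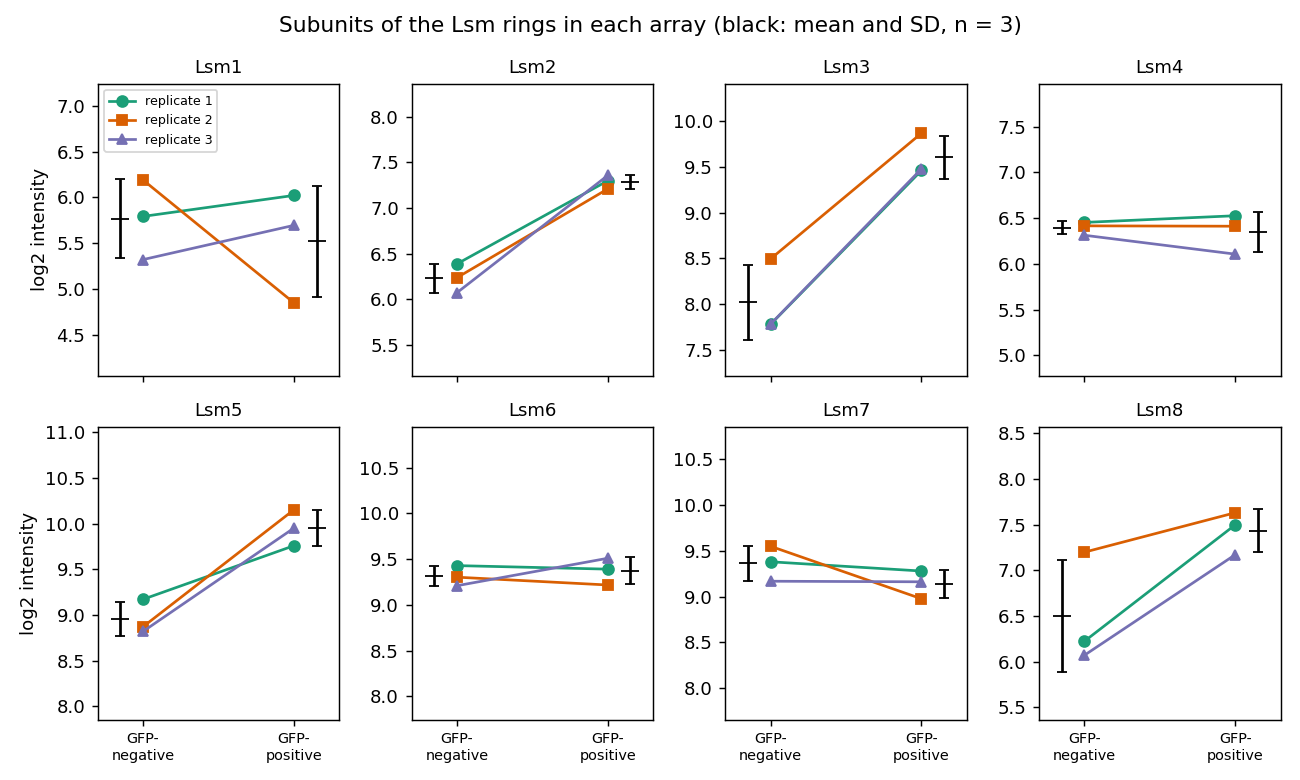
Log2 intensity (vertical axis, same span in each panel) of Lsm1 to Lsm8 in the GFP-negative and GFP-positive arrays, with lines joining arrays of the same replicate number and black bars for the mean and SD of 3 arrays. All 3 lines climb for Lsm2, Lsm3, Lsm5 and Lsm8, with differences of 1.05, 1.58, 1.0 and 0.93, while the lines of Lsm4, Lsm6 and Lsm7 run both ways or down, from a drop of -0.57 (Lsm7, number 2) to a climb of 0.30 (Lsm6, number 3).

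The remaining subunits of the rings did not pass. Lsm8, which takes the place of Lsm1 in the nuclear ring, stood at 6.22, 7.20 and 6.07 in GFP-negative and 7.5, 7.63 and 7.17 in GFP-positive arrays. Each GFP-positive array was above its GFP-negative partner of the same number, but GFP-negative 2 lay above GFP-positive 3. The difference was 0.93 ± 0.28 (SE, adjusted p = 0.22 in limma), and without GFP-negative 2 it was 1.29 and passed (adjusted p = 0.0084). Without both arrays of number 2 it was 1.19 (adjusted p = 0.021). Lsm1, found in the cytoplasmic ring, stood at 5.79, 6.19 and 5.32 against 6.02, 4.85 and 5.69. Its spread was wide in both groups, and its difference of -0.25 had a 95% interval from -0.94 to 0.44. The sign turned without GFP-positive 2 (0.09) and without both arrays of number 2 (0.30).

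Lsm4, Lsm6 and Lsm7 belong to both rings with Lsm2, Lsm3 and Lsm5, and none of them passed. Lsm4 differed by -0.05 (95% interval -0.39 to 0.30). Lsm6 differed by 0.06 (-0.26 to 0.38). Lsm7 differed by -0.23 (-0.58 to 0.12). The upper ends of these 3 intervals lie below the lower ends for Lsm5 (0.63), Lsm2 (0.74) and Lsm3 (1.10), though the difference between one gene and another was not itself tested. The 3 probe sets of Lsm6 ran from -0.05 to 0.06, and those of Lsm7 gave -0.23 and -0.22.

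The other Lsm genes serve elsewhere. Lsm10 and Lsm11 encode ring subunits of the U7 snRNP, which trims histone messenger RNA. Lsm10 stood at 6.68, 6.80 and 6.38 in GFP-negative arrays and at 6.91, 6.01 and 5.14 in GFP-positive ones. This was the lowest difference among the members but also the least precise, -0.60 ± 0.37 (SE, adjusted p = 0.75 in limma), with the GFP-positive arrays spread over both sides of the GFP-negative range. Without GFP-positive 3 it was -0.16, and without GFP-positive 1 it was -1.05. Lsm11 differed by 0.28 ± 0.18, and Lsm12, a member outside the rings, by -0.20 ± 0.14, both with overlapping groups.

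Promoter sequences are shown for the 3 Lsm genes that rose and for Lsm6, a ring subunit that was not called, so that the start regions can be compared. Each runs from 250 bases before to 50 bases after an annotated start site, 5′ to 3′ on the gene's strand, from RefSeq on GRCm38.p6. Capitals mark CCAAT (or ATTGG, the letters bound by NF-Y on the other strand) and TTTGAA (or TTCAAA), known as the cell cycle homology region of many mitotic genes. The positions are chr17:34981604-34981903 (plus strand) for Lsm2, chr6:91515785-91516084 (plus) for Lsm3, chr6:56704650-56704949 (minus) for Lsm5 and chr8:78821103-78821402 (minus) for Lsm6.
Lsm2: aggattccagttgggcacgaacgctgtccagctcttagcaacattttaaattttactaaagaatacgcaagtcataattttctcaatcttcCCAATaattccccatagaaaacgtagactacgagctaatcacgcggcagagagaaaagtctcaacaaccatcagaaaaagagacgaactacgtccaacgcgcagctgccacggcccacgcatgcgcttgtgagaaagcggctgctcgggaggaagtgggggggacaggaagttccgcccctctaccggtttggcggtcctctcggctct
Lsm3: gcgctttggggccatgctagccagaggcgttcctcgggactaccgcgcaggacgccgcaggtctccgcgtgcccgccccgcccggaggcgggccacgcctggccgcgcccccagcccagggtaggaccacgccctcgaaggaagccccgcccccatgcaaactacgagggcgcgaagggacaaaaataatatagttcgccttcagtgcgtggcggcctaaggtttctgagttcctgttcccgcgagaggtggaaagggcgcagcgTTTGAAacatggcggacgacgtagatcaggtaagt
Lsm5: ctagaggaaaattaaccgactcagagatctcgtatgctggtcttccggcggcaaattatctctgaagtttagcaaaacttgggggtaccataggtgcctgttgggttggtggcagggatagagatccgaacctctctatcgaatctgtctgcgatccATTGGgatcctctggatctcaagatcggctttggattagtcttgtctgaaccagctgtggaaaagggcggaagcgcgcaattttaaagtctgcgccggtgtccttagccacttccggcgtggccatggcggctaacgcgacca
Lsm6: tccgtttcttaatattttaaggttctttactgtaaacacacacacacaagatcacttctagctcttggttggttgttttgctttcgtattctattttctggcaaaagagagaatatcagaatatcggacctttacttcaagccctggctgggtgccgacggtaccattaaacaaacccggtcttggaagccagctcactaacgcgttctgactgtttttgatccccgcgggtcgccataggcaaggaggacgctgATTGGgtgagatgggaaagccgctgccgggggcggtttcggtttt
Each of these windows holds 1 match. In Lsm2 and Lsm5 it is a CCAAT match, at positions -159 and -93 relative to the start site, and in Lsm6 it is one at position 6. In Lsm3 it is TTTGAA, at position 16. Lsm2 has a further annotated start, whose window holds neither. The genes that rose thus shared no single one of these letters, and Lsm6, which was not called, holds one too.

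Over all families 48 of the 57 members matched the promoter table, with 64 start sites. CCAAT was found on either strand in 43.8% of these windows and in 37.4% of all 32851 windows of the table. TTTGAA was found in 12.5% against 17.9%, and TTTNGCGC, an E2F-type motif, in 4.69% against 1.38%, or 3 windows. CGGAAG, an ETS-type motif, was found in 53.1% against 16.9%, and GGGCGG, the GC box, in 76.6% against 35.7%. TTTNGCGC was found in none of the 10 Lsm windows, GGGCGG in all 10, and CGGAAG in 4. The table's windows include those of genes of every kind, so these shares describe the members beside all listed starts and give no test.

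Among the 10 Snrp genes, none passed in limma and 3 had an unadjusted p below 0.05, all upward, as did 5.01% of all genes. The 2 genes of proteins particular to the U2 snRNP were among these 3. Snrpa1, which encodes the A′ protein of U2, stood at 8.24, 7.65 and 7.44 in GFP-negative and 8.57, 8.28 and 8.60 in GFP-positive arrays. The groups touched closely without overlapping, and the difference was 0.71 ± 0.21 (SE, adjusted p = 0.23 in limma), passing in 1 of the 14 alternatives, the one without GFP-negative 1 (0.94, adjusted p = 0.048). Snrpb2, which encodes its partner, the B″ protein, stood at 8.21, 8.15 and 8.40 against 8.54, 8.53 and 8.73. It was higher by 0.33, 0.38 and 0.34 in numbers 1, 2 and 3, with separate groups (0.35 ± 0.14, adjusted p = 0.49 in limma). The U1 genes differed by 0.31 ± 0.16 for Snrpc and 0.04 ± 0.15 for Snrpa, neither of which passed.

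The members that encode the Sm ring, which is common to the U1, U2, U4 and U5 snRNPs, differed by -0.10 to 0.40. Snrpe, with the third unadjusted p below 0.05, stood at 10.51, 10.19 and 10.17 against 10.64, 10.83 and 10.50, and GFP-positive 3 was just below GFP-negative 1 (0.37 ± 0.16, adjusted p = 0.53 in limma). Snrpd1 had the second largest difference of the family, 0.40 ± 0.25, but its values of 8.92, 8.29 and 9.02 against 9.50, 9.26 and 8.68 overlapped. Snrpg differed by 0.24 with separate groups (10.66, 10.59 and 10.63 against 10.89, 10.92 and 10.80) and was not called. Snrpd3 differed by 0.25 with overlapping groups. The lowest 2 were Snrpd2 at 0.01 (95% interval -0.28 to 0.31) and Snrpb at -0.10 (-0.42 to 0.21). The 5 probe sets of Snrpd2 lay between -0.09 and 0.05.

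Among the 10 Srsf genes, none passed in limma and 3 had an unadjusted p below 0.05: Srsf3, Srsf1 and Srsf2. All were upward, as were 5.01% of all genes at that unadjusted p. Srsf3, the gene of the smallest SR protein, stood at 10.13, 9.77 and 10.02 in GFP-negative and 10.84, 10.53 and 11.30 in GFP-positive arrays. The groups were separate by a wide gap, and GFP-positive 3 was the highest. The difference was 0.92 ± 0.20 (SE, adjusted p = 0.070 in limma), or 1.89-fold. With the replicate number as a block it passed (adjusted p = 0.034), as did 1.64% of all genes upward, and it passed without GFP-positive 2 (1.09, adjusted p = 0.031), with an intensity trend (0.039) and with array weights (0.031). The other 2 probe sets of Srsf3 gave 0.83 and 0.57.

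Srsf1, an SR protein gene that acts in both constitutive and alternative splicing, stood at 8.40, 7.93 and 8.34 against 8.90, 8.67 and 9.0. The groups were separate (0.63 ± 0.17, adjusted p = 0.16 in limma), and it passed in none of the 14 alternatives. Srsf2, whose protein is the classic marker of nuclear speckles, was at 8.46, 8.29 and 8.64 against 8.75, 8.93 and 8.95. It too had separate groups at a smaller difference (0.42 ± 0.15, adjusted p = 0.37 in limma). The opposite end of the family held Srsf4 (-0.31 ± 0.23) and Srsf9 (-0.21 ± 0.14), both with overlapping groups. Srsf4 was lower in the GFP-positive array of all 3 numbers. Srsf9 was lower in numbers 2 and 3 and level in number 1 (-0.0008). Srsf10 and Srsf11 differed by 0.30 and 0.27, the second with separate groups. Srsf5 and Srsf6 differed by 0.099 and -0.0024, and Srsf12 (-0.07) was the single member whose mean lay below the array medians.

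**Figure D4:**
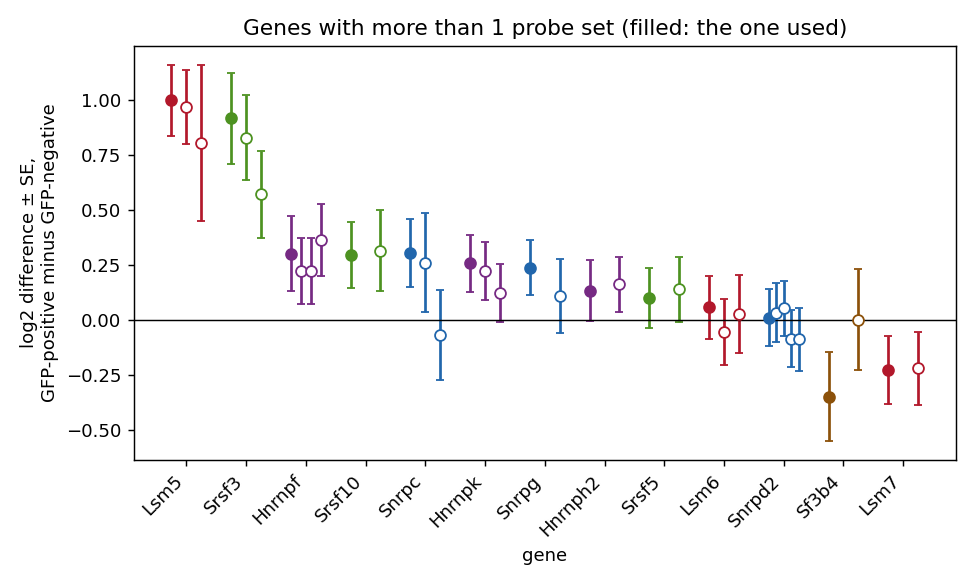
Log2 difference ± SE (vertical axis) of every probe set of the 13 members that have more than 1 (horizontal axis), coloured by family as in the plot of all members, with the probe set used filled. The probe sets of Lsm5 lie between 0.80 and 1.0 and those of Srsf3 between 0.57 and 0.92, while those of Lsm6 and Snrpd2 lie near 0.

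Probe sets of the same gene mostly gave like values. For 9 of the 13 members with several probe sets the sign was the same in all, and the widest gap was that of Snrpc, from -0.07 to 0.31. Sf3b4 ran from -0.35 to 0.00. Many genes of these families have near-identical processed copies in the genome, and whether probe sets of a gene share probes or read such copies is not known here.

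The Hnrnp family was the largest. Of its 17 genes, 16 lay above 0 (14 without GFP-positive 3), and none passed in limma. Separate groups were seen in 9, all upward, and 5 had an unadjusted p below 0.05. The shares of all genes were 44.3% above 0, 6.82% separated upward and 5.01% at the unadjusted p upward. Hnrnph1, whose protein binds runs of G, stood at 8.73, 8.98 and 9.12 in GFP-negative and 9.56, 9.54 and 9.65 in GFP-positive arrays. The GFP-positive arrays were tightly grouped above all others (0.64 ± 0.15, adjusted p = 0.081 in limma), and of the 14 alternatives it passed with array weights (adjusted p = 0.022). Hnrnpm stood at 9.63, 9.72 and 9.46 against 10.23, 10.05 and 10.32. Its groups were separate as well (0.60 ± 0.14, adjusted p = 0.10 in limma), and it passed with quantile normalization (0.047) and with array weights (0.037).

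Hnrnpab had the tightest GFP-positive values of the family, 10.67, 10.68 and 10.69, against 10.22, 10.04 and 10.20. Its difference was 0.53 ± 0.13 (SE, adjusted p = 0.11 in limma), and it passed with an intensity trend (0.042). Hnrnpul1 and Hnrnpul2, whose proteins also act at DNA breaks, completed the 5, at 0.52 ± 0.17 and 0.43 ± 0.15. Hnrnpul1 stood at 8.02, 7.93 and 7.93 against 8.57, 8.12 and 8.74, and Hnrnpul2 at 8.53, 8.83 and 8.88 against 9.09, 9.25 and 9.20. Both had separate groups, with GFP-positive 2 closest to the GFP-negative arrays for Hnrnpul1.

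Further genes of the family had smaller differences. Hnrnpu, a scaffold protein gene, stood at 10.42, 10.35 and 10.68 against 10.73, 10.80 and 10.74. Hnrnpk, which binds C-rich stretches, stood at 10.56, 10.64 and 10.75 against 10.84, 10.91 and 10.97. Hnrnpa2b1 stood at 10.61, 10.55 and 10.61 against 10.73, 10.93 and 10.75. None of these overlapped between groups, and their differences were 0.27, 0.26 and 0.21 with adjusted p of 0.65 to 0.76 in limma. Hnrnpl (0.31 ± 0.14) was the ninth gene with separate groups. Hnrnpc, which binds stretches of U, differed by 0.07 (95% interval -0.25 to 0.39), and Hnrnpd, which binds AU-rich elements, by 0.13 (-0.29 to 0.55). Hnrnpf and Hnrnpdl differed by 0.30 each, Hnrnpr by 0.20 and Hnrnph2 by 0.13, all with overlapping groups. The lowest 2 were Hnrnpll at 0.05 and Hnrnpa0 at -0.08, whose signs turned in some alternatives (-0.07 to 0.13 and -0.23 to 0.09).

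No Sf3a or Sf3b gene passed in limma, and none had an unadjusted p below 0.05. Sf3b1, the subunit gene whose protein clamps the branch point, stood at 8.76, 9.05 and 8.88 in GFP-negative and 9.15, 9.20 and 9.19 in GFP-positive arrays. It was the 1 gene of this family with separate groups (0.28 ± 0.14, adjusted p = 0.61 in limma). Over all genes 6.82% were separated upward. Sf3b2 differed by 0.28 ± 0.17 with overlapping groups. Sf3a1, Sf3a3 and Sf3b3 differed by 0.24, 0.21 and 0.21, and Sf3b5 and Sf3b6 by 0.11 and 0.04. The lowest difference was that of Sf3b4 (-0.35 ± 0.20), where GFP-negative 3 alone was high at 6.89 beside 6.24 and 6.19. The 95% intervals of the 9 genes together ran from -0.79 (Sf3b4) to 0.84 (Sf3a1), and each held 0. That of Sf3b1, the most precise of them, ran from -0.02 to 0.59.

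Number 2 had the lowest median difference in the Sf3a and Sf3b family, -0.07, against 0.30 for number 1 and 0.41 for number 3. It was lowest among Lsm genes too, at -0.004 against 0.23 and 0.30. In numbers 1, 2 and 3 the medians were 0.28, 0.25 and 0.25 for Snrp and 0.31, 0.27 and 0.27 for Hnrnp genes. For Srsf genes they were 0.15, 0.20 and 0.30. Sf3a2 stood at 6.11, 6.10 and 6.07 in GFP-negative and at 6.59, 5.32 and 6.38 in GFP-positive arrays, with GFP-positive 2 lowest. The same array was lowest for Sf3a1, at 5.30 beside 6.26 and 6.40. Without both arrays of number 2 the Sf3a and Sf3b median was 0.35. GFP-negative 2 was not low for Sf3a2 (6.10) or Sf3a1 (5.94). In both groups number 2 was the array with high Xist (9.03 and 9.80, against 3.73 to 4.04 in the other 4 arrays). Array, sample and sex cannot be told apart for number 2, and the cause of the shift was not tested.

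Other splicing genes were counted in 8 lists, which held 199 genes outside the name families. Of these, 1 rose and none fell in limma, 38 had an unadjusted p below 0.05 upward and 3 downward, and 146 lay above 0, with a median of 0.16. Over all genes the shares were 1.55% and 0.115% called, 5.01% and 3.79% at the unadjusted p, and 44.3% above 0, so the count called in the lists was below that of all genes. The gene that rose was Pspc1, a core protein of paraspeckles, at 6.24, 6.51 and 6.57 against 7.58, 7.40 and 7.57 (1.08 ± 0.15, adjusted p = 0.0035 in limma). The groups were separate by a wide gap. With the replicate block 4 of the 199 passed: Pspc1, Gemin6, Alyref and Snrnp70. That is near the share of all genes that passed upward with the block, 1.64%.

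**Figure D5:**
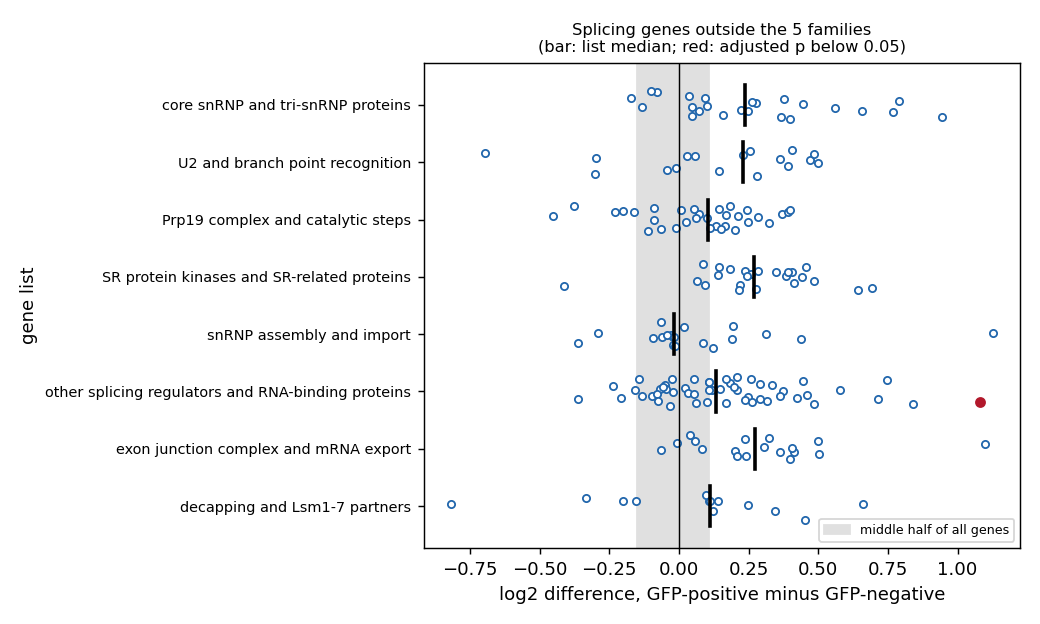
Log2 differences (horizontal axis) of the genes of 8 lists of splicing and RNA processing genes (vertical axis, 1 point per gene with random vertical offset), with a black bar at each list median and a grey band between the quartiles of all genes, -0.15 and 0.11. Pspc1 is the filled red point at 1.08, and the medians run from -0.02 for snRNP assembly to 0.27 for mRNA export.

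The medians of the lists ran from -0.02 to 0.27. Further snRNP proteins (24 genes, none called) had a median of 0.24, with 20 above 0. Their largest difference was that of Snrnp70, the U1 70K protein gene, at 7.80, 7.70 and 7.82 against 8.74, 8.23 and 9.18 (0.94 ± 0.22, adjusted p = 0.089 in limma, or 0.046 with the replicate block). Its GFP-negative arrays were tight and its GFP-positive arrays wide, with number 3 highest. SR protein kinases and SR-related proteins (24 genes, none called) had a median of 0.27 with 23 above 0, led by Tra2a, an SR-like splicing activator gene (0.69 ± 0.21, adjusted p = 0.22). Genes of U2 and branch point recognition (17, none called) had a median of 0.23, and their largest difference was a lower value, that of Gpatch8 (-0.70 ± 0.34, adjusted p = 0.61).

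The list of snRNP assembly and import, which also holds Lsm14a and Lsm14b, had a median of -0.02, with 8 of 19 above 0. Gemin6, a subunit of the SMN complex, had the largest difference, at 7.19, 6.35 and 6.99 against 8.21, 7.51 and 8.18. It was higher in each number by a like amount (1.13 ± 0.26, adjusted p = 0.076 in limma, or 0.0048 with the replicate block). In the exon junction and export list (18 genes, median 0.27) the export adaptor gene Alyref led, at 5.77, 6.61 and 6.81 against 7.14, 7.71 and 7.63 (1.10 ± 0.27, adjusted p = 0.11, or 0.010 with the block). In the Prp19 and catalytic list (32 genes, median 0.10) the largest difference was that of Prpf40b (-0.45 ± 0.13, adjusted p = 0.22). In the decapping list, whose proteins work with the ring of Lsm1 to Lsm7 (13 genes, median 0.11), it was that of the decapping enhancer gene Edc3 (-0.82 ± 0.25, adjusted p = 0.24). Prpf40b and Edc3 had separate groups, lower in GFP-positive arrays, and did not pass. The list of other splicing regulators, to which Pspc1 belongs, had a median of 0.13 over 52 genes.

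Summed levels of several other liver cell types were lower in the GFP-positive arrays. Of the 9 hepatocyte markers, 7 were below 0 in difference as well, and over all genes 44.3% were above 0. Intensities of 10 stellate cell and fibroblast markers were summed on the linear scale, where the brightest markers weigh most. The log2 of the sum lay between 8.82 and 8.98 in GFP-negative and between 8.41 and 8.60 in GFP-positive arrays. In difference, 9 of the 10 were below 0. For 10 endothelial markers the log2 of the sum lay between 8.35 and 8.70 against 8.22 to 8.29, with 7 of the 10 below 0. For 10 Kupffer cell markers it lay between 7.80 and 8.11 against 7.58 to 7.70, again with 7 of the 10 below 0. Of these Kupffer cell markers, 7 had means below the array medians. The sum of 6 cholangiocyte markers lay between 7.61 and 7.81 against 7.57 to 7.60, nearly touching, and 3 of the 6 had means below the array medians. Sums of 7 erythroid, 9 lymphoid and 9 neutrophil markers overlapped between the groups (8.81 to 9.03 against 8.43 to 8.82, 7.29 to 7.72 against 7.37 to 7.42, and 7.26 to 7.78 against 7.04 to 7.27). Clec4f, a Kupffer cell gene, was the 1 marker that fell (-0.68 ± 0.13, adjusted p = 0.032 in limma, or 0.077 with the replicate block). No marker was at 0, since the deposited values have no zeros, and the part of these cells in the members' differences was not tested.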

How the data were processed

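The authors deposited intensities summarised by RMA, which corrects background, normalizes arrays to each other and combines probes. RMA is named in the submitters' processing notes, without a version. They are on a linear scale, from 1.62 to 15836, so log2 was taken, with no further normalization and no filter. Of 35512 probe sets, 21789 have 1 gene symbol, 1621 several and 12102 none; those with several, 17 of which name these families, entered no test by gene. Symbols were updated through Entrez identifiers (GRCm38 gene table, names only), which renamed 0 members. Of the 57 members, 13 have more than 1 probe set.

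Groups were compared with limma 3.58.1 in R 4.3.3 (lmFit, eBayes, 4 residual and 5.44 prior degrees of freedom), fitting group alone and adjusting over 19938 genes. The test was tried on simulated data. Errors are SE, and intervals 95%. Folds are 2 to the power of the difference. The named genes are each member that passed, the 2 highest and 2 lowest differences of each family, the called genes with the largest differences (at most 3) or the single largest difference of each list, and 2 mitosis genes; further members are given because they are members. The members and lists were chosen with earlier results of these data known. Plots were drawn in matplotlib 3.10.9 under Python 3.11.15.

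Both fractions came from the same 3 livers, per the design text, and the replicate numbers were taken to pair them. Xist was high and Eif2s3y low (1.98 and 2.24, against 6.78 to 7.31) in number 2 of both groups. Deviations from the group means correlated across genes by 0.20, 0.06 and -0.05 for numbers 1, 2 and 3. No label names a batch.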

Additional observations from a re-analysis of the deposited data

How the results depend on the processing

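The 14 alternatives kept Lsm2 and Lsm3 called, and the members' median difference lay between 0.18 and 0.26 in them; no member fell in any of them. The count of members that rose, 3, was 5 with an intensity trend, 6 with array weights and 5 at an adjusted p below 0.1. Among all genes 310 rose in the main test, 311 with an intensity trend, 405 with array weights and 307 with quantile normalization. It was 313 with the lowest genes left out (of 13292) and with the mean of all probe sets, and 282 without both number 2 arrays. All genes were not counted at an adjusted p below 0.1. Leaving out single arrays gave 2 to 4 members and 244 to 294 of all genes. With the replicate block, the arrays of the same number being taken as pairs, 4 members passed, Srsf3 being the addition, and the count in the 8 lists went from 1 to 4, while 327 genes were higher; no other member's call changed. The count in the 8 lists was also 2 with quantile normalization, with the lowest genes left out, with the mean of all probe sets and with an intensity trend, 7 with array weights, 1 to 3 without single arrays and 3 when both number 2 arrays were dropped. That last alternative was added after seeing the data. The count of all genes that fell, 23, was 38 with quantile normalization, 13 with arrays centred on their medians, 53 with array weights, 6 to 29 without single arrays and 9 without both arrays of number 2.

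The median of all genes went from -0.03 to -0.075 with quantile normalization, where 42 of the 57 members and 34.6% of all genes were above 0. With centred arrays 43 members and 38.1% of all genes were above 0. The Snrp median was 0.25 with centred arrays, 0.21 with the mean of all probe sets, 0.31 with array weights, 0.21 without both arrays of number 2 and 0.22 to 0.31 without single arrays. The Lsm median, 0.06, was 0.01 without GFP-negative 3 and 0.14 without GFP-positive 2. The Hnrnp median was 0.24 with centred arrays and 0.24 to 0.31 without single arrays. The Srsf median was 0.27 with the lowest genes left out, which left out Srsf12; the cause of the other moves was not tested. The Sf3a and Sf3b median ran from 0.04 (without GFP-positive 3) to 0.27 without single arrays. With 3 arrays a group, differences of the size of the family medians lie well below the smallest difference called in a single member, 1.0.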

Other observations

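Besides the members, 17 probe sets are annotated to several genes of which at least 1 carries a name of these families, and no single gene can be named from them. Of these, 16 were above 0 and had all GFP-positive arrays above all GFP-negative arrays, and 1 was below 0. Among the 19938 genes 44.3% were above 0 and 6.82% were separated upward, and these shares were not counted over all probe sets. Probe sets 10344741 and 10515113 had the same values in every array. The log2 differences ran from -0.26 to 0.70, with a median of 0.58, beside the members' median of 0.24. None passed when all 35512 probe sets were tested with limma (lowest adjusted p = 0.13). Several of them name the same genes, so they are fewer than 17 separate measurements.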
